A study of Mus musculus with 2 samples.

Results

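Chromatin boundaries that lay at the start of a long noncoding gene and away from every protein-coding start are described here. They are the autosomal boundary intervals with a lincRNA or antisense gene start within 10 kb, and no protein-coding gene start within 10 kb, in GENCODE release M21. There were 369 of them among 7435 boundaries in the whole list and 7035 on the 19 autosomes. The rule uses positions alone, so the authors' class and score, and sequence content, were not used to choose them. Among the other autosomal boundaries, 285 had both kinds of start within 10 kb, 1719 had a coding start only and 4662 had neither.

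The boundaries come from in situ Hi-C, in which DNA fragments that touch in the nucleus are joined and the junctions sequenced. The cells were mature olfactory sensory neurons that express the odorant receptor gene Olfr16 (MOR23), sorted by GFP fluorescence. The mice were adult MOR23-GFP animals of mixed sex, the tissue was olfactory epithelium, with no treatment and no strain specified in the labels. Biological replicate 1 had 28000 cells and biological replicate 2 had 24400, both were fixed with 1% formaldehyde and cut with DpnII, and both entered 1 combined contact matrix on GRCm38. There was 1 group and the list gives no value per replicate, so no spread between animals can be given and all comparisons are between kinds of position in the genome. The list holds no expression values, so neither the sort nor the activity of any gene named below could be checked in it.

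A boundary is a position across which contacts are depleted, so that the chromatin on its left and on its right form separate domains. In mammals many boundaries form where cohesin, the complex that extrudes DNA loops, is stopped by the zinc finger protein CTCF, and coding gene promoters are often found at them as well. lincRNA genes give long noncoding transcripts from between coding genes. Antisense genes are transcribed from the strand opposite to another gene, usually overlapping it. Most of the noncoding genes met here carry only a provisional symbol.

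Boundaries with a noncoding start only are shown first by the sequence at the start itself. Promoter sequences of 300 bases, from 250 before the start to 50 after it, were found in RefSeq (GRCm38.p6) for 146 of the 369 nearest noncoding genes, and in 29 of these the RefSeq start lay inside the 5 kb interval. Below are 3 of those 29, shown as examples of starts poor and rich in CG dinucleotides. The first 2 belong to boundaries among the 12 with the highest scores, and the third was chosen after its values were seen, for its CG pairs. The 1700030N03Rik promoter lies at chr19:3197654-3197953, that of 6030407O03Rik at chr1:73864417-73864716 and that of Gm17382 at chr17:26886197-26886496, all on the minus strand. Capitals mark CG pairs, of which there are 2, 1 and 14 in that order.
1700030N03Rik promoter: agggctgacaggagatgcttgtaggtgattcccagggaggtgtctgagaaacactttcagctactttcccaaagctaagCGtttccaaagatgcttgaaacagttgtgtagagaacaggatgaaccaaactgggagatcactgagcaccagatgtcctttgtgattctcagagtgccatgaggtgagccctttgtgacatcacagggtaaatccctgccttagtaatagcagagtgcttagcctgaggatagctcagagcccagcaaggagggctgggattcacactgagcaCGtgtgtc
6030407O03Rik promoter: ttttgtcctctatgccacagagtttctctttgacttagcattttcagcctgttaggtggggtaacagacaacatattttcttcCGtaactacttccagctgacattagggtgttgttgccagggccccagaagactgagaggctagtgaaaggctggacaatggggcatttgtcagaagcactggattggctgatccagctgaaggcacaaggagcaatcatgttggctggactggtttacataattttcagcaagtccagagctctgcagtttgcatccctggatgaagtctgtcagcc
Gm17382 promoter: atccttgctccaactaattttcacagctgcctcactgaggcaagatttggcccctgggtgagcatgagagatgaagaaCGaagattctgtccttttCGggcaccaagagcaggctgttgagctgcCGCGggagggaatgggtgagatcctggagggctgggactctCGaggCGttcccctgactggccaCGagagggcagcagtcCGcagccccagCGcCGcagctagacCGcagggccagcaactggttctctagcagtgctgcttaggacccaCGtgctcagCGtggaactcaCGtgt

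Starts poor in CG pairs were the common ones. Taken from the genome at the GENCODE start, the 300 base windows of the 369 nearest noncoding starts had a median GC content of 48.0% and a median ratio of observed to expected CG pairs of 0.245. A window was called CpG-rich at a GC content of at least 50% and a ratio of at least 0.6, and 27 of the 369 (7.32%) were. Among all 5667 noncoding starts with no coding start within 10 kb, 217 (3.83%) were CpG-rich. These sets are not alike. The larger one bars a coding start within 10 kb of the noncoding start, whereas the 369 bar one within 10 kb of the boundary. Some of the 369 noncoding starts can thus have a coding start nearer than 10 kb, and the difference was not tested. The 2240 coding starts near a boundary, with no noncoding start within 10 kb, had a median GC content of 57.0%, and 1154 of them (51.5%) were CpG-rich. Of all 17961 such coding starts, near a boundary or not, 7447 (41.5%) were CpG-rich, with a median GC content of 54.7%. Boundaries whose noncoding start was CpG-rich were of class Strong in 12 of 27 cases (44.4%, exact 95% interval 25.5 to 64.7%), and the other 342 in 192 cases (56.1%, 50.7 to 61.5%). These intervals overlap, and the difference was not tested.

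The second set of sequences shows the CTCF site. Exact matches to the 12 letter CTCF core consensus were searched on both strands, and 25 of the 369 boundaries held 26 matches inside the 5 kb interval, 14 of them on the plus strand. Of these, 4 lincRNA boundaries with scores above 1, and that of the antisense gene Tvp23bos, which held both its start and a match, are printed as 62 bases of GRCm38 read on the strand of the match. Capitals mark the 12 bases of the match.
Gm11419 boundary, chr11:81996330-81996391, plus strand: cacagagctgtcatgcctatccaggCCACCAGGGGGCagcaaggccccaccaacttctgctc
1700015I17Rik boundary, chr8:35707985-35708046, minus strand: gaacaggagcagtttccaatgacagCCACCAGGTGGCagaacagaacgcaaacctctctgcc
Gm28502 boundary, chr15:75088216-75088277, minus strand: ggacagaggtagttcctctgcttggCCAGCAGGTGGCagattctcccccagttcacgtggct
Gm47128 boundary, chr9:122418653-122418714, plus strand: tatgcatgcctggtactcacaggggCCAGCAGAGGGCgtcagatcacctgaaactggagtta
Tvp23bos boundary, chr11:62921189-62921250, plus strand: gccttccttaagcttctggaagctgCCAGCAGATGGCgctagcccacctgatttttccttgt

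The scores at these boundaries were 1.30 for Gm11419, 1.22 for 1700015I17Rik, 1.16 for Gm28502, 1.05 for Gm47128 and 0.634 for Tvp23bos, all in class Strong. The score is the authors' own strength value for a boundary, with no unit, and its formula is not given in the sources used here. In the list Strong boundaries score at least 0.5, Weak ones score less, and none scores under 0.2. A match shows that these letters are present, not that CTCF is bound. Sites that depart from the consensus were not counted, so here and below the lack of a match does not show the lack of a CTCF site.

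The question put to the whole set was whether boundaries are denser at noncoding starts than elsewhere. Each autosome was divided into 5 kb bins, and 1.48% of all 476044 bins (7030) were boundaries. Among the 26114 bins with a noncoding start only, 1.41% were boundaries, or 2.83 per Mb. This stood against 2.44% (4.88 per Mb) of 70428 bins with a coding start only and 1.26% (2.53 per Mb) of 368373 bins with neither. The share at noncoding starts was thus below the share of all bins, since that background includes the coding starts.

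Against coding starts the difference was large. The odds that a bin with a noncoding start only was a boundary were 0.576 times those of a bin with a coding start only (95% interval 0.506 to 0.655, adjusted p = 2.853e-07, n = 19, logistic model across all bins). Here and below, n = 19 beside a p counts the autosomes over which the errors were clustered. The share was lower at noncoding starts on 19 of 19 autosomes. Against bins with no start the odds ratio was 1.12 (1.02 to 1.24, adjusted p = 0.0388, n = 19), with the share higher at noncoding starts on 15 of 19 autosomes. That small excess did not hold in every setting. Over all boundaries it was 1.02 (0.933 to 1.12, adjusted p = 0.825, n = 19) with the GC content of the bin in the model. With a CTCF match within 10 kb in the model it was 1.06 (0.967 to 1.17, adjusted p = 0.215, n = 19). Counting Strong boundaries only, without these covariates, it was 1.285 (1.124 to 1.468, adjusted p = 0.0031, n = 19).

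Where a noncoding start lay beside a coding start, boundaries were about as dense as at coding starts alone. Of 11129 bins with both kinds of start, 2.56% were boundaries, and the odds ratio against bins with a coding start only was 1.05 (0.956 to 1.16, adjusted p = 0.282, n = 19). The interval allows an excess of up to 1.16-fold in the odds.

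**Figure D1:**
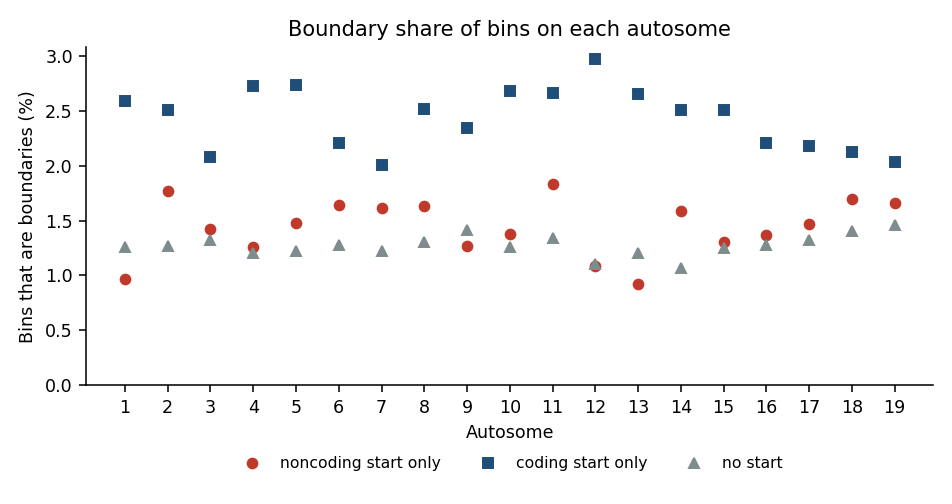
Share of 5 kb bins that are boundaries (vertical axis, %) on each of the 19 autosomes (horizontal axis), for bins with a noncoding start only (red circles), a coding start only (blue squares) and no start (grey triangles) within 10 kb. The circle lies below the square on every autosome and above the triangle on 15 of 19.

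Among bins with no coding start within 10 kb, the share of boundaries did not climb toward a noncoding start. Away from the bin of the start, the noncoding start itself could have a coding start within 10 kb. Near and far bins thus follow partly different starts, and the profile does not describe lone noncoding starts only. Bins that held such a start were boundaries in 1.48% of cases (81 of 5477), bins 5 kb away in 1.48% (156 of 10532) and bins 10 kb away in 1.31% (132 of 10105), against 1.51% at 15 kb, 1.41% at 20 kb, 1.60% at 50 kb, 1.17% at 55 kb and 1.48% at 60 kb. Around coding starts, among bins with no noncoding start within 10 kb, the share was 3.15% in the bin of the start (515 of 16342). It was 2.46% at 5 kb, 1.95% at 10 kb, 2.00% at 20 kb and 1.61% at 60 kb. The exact interval of the bin holding a noncoding start, 1.18 to 1.83%, does not reach that of the bin holding a coding start, 2.89 to 3.43%. The start lay inside the interval in 81 of 369 boundaries (22.0%), beside 21.0% of all bins with a noncoding start only. At boundaries with a coding start only it lay inside in 30.0%, beside 23.2% of the matching bins.

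**Figure D2:**
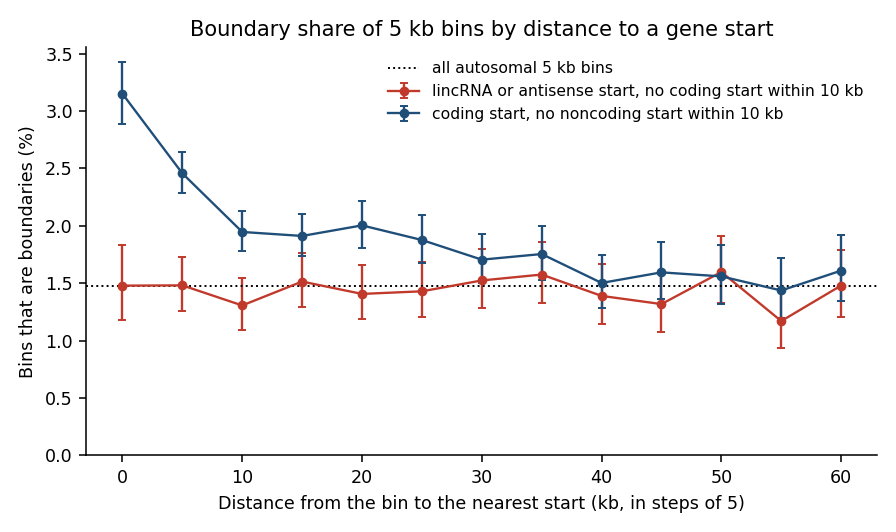
Share of 5 kb bins that are boundaries (vertical axis, %) by distance from the bin to the nearest start (horizontal axis, kb). Red shows lincRNA or antisense starts, over bins with no coding start within 10 kb of the bin. Blue shows coding starts, over bins with no noncoding start within 10 kb of the bin. Bars are exact 95% intervals for counting error and the dotted line is the share of all autosomal bins, 1.48%; the red points lie between 1.17% and 1.60%, with intervals that include the line except at 55 kb (0.934 to 1.45%), and the blue ones reach 3.15% in the bin of the start.

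The surroundings of noncoding starts were examined in a model added after the data had been seen, with terms for starts within 50 kb beside those within 10 kb. A noncoding start within 50 kb went with higher odds of a boundary, at 1.16-fold (1.11 to 1.20, adjusted p = 5.552e-07 over 9 terms, n = 19). Given that, a noncoding start within 10 kb had an odds ratio of 0.952 (0.888 to 1.02, adjusted p = 0.205, n = 19), whereas a coding start within 10 kb had one of 1.38 (1.27 to 1.49, adjusted p = 5.552e-07, n = 19). The ratio of the noncoding to the coding term at 10 kb was 0.692 (0.617 to 0.776, adjusted p = 5.65e-06, n = 19). Antisense starts, at 0.966, and lincRNA starts, at 0.931, each gave a 10 kb term whose interval includes 1.

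The coding genes around these boundaries were the other measure of surroundings. The nearest coding start lay a median of 44.8 kb away. In the 109 cases with a coding start 10 to 25 kb away, boundaries made up 2.19% of bins with a noncoding start only, against 1.93% of bins with no start. At 25 to 50 kb these shares were 1.81% and 1.63%, at 50 to 100 kb they were 1.35% and 1.44%, and beyond 100 kb they were 0.897% and 0.905%. Bins with a noncoding start only were found more often in the nearest band, 19.1% of them against 15.4% of bins with no start, and less often beyond 100 kb, 41.0% against 52.5%. With the distance band in the model, again added after the data had been seen, the odds ratio of noncoding-only bins against bins with no start was 1.05 (0.953 to 1.15, adjusted p = 0.345, n = 19).

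**Figure D3:**
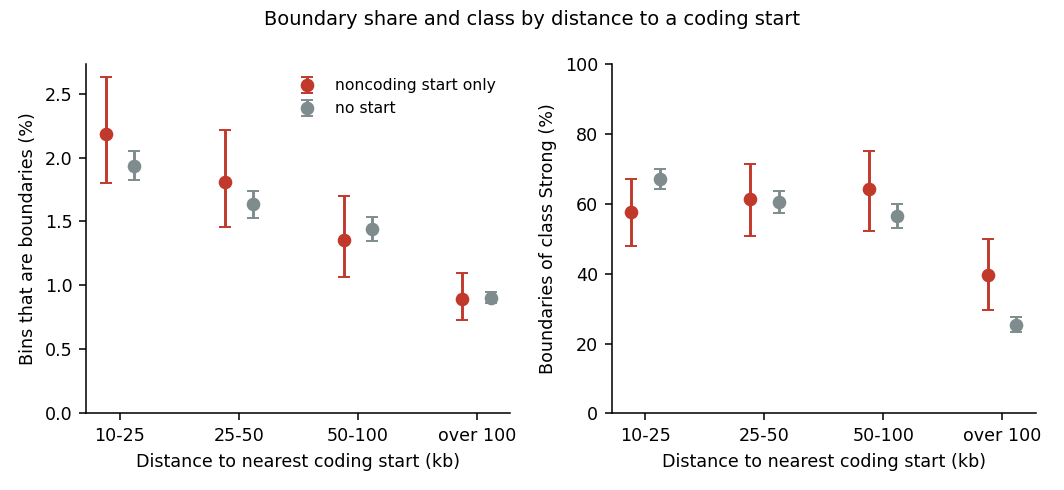
Left, share of 5 kb bins that are boundaries (%); right, share of boundaries in class Strong (%); both by distance to the nearest coding start (horizontal axis, kb), for bins or boundaries with a noncoding start only (red) and with no start (grey), with exact 95% intervals. Both colours fall together on the left, to 0.897% and 0.905% beyond 100 kb, and on the right the widest gap is beyond 100 kb, with 39.6% Strong against 25.4%.

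Counted by gene, 409 of 5627 noncoding starts with no coding start within 10 kb (7.27%, exact 95% interval 6.60 to 7.98%) lay within 10 kb of a boundary. Among 17760 coding starts with no noncoding start within 10 kb, 2236 (12.6%) did, and so did 7.37% of all autosomal bins. Of bins with no start of either kind within 10 kb, 6.34% did (exact 95% interval 6.27 to 6.42%). The same types of noncoding gene stood closer to boundaries where a coding start was near them: 294 of 2442 (12.04%) were within 10 kb. The median distance to the nearest boundary was 80.5 kb for the noncoding starts without a coding start nearby (quartiles 37.1 and 147.4 kb) and 57.7 kb for the coding ones (25.0 and 105.7 kb).

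The strength of boundaries at noncoding starts lay between that of the other kinds. Of the 369, 204 were Strong (55.3%, exact 95% interval 50.1 to 60.4%), where 53.1% of all autosomal boundaries were. The share was 64.3% (62.0 to 66.6%) at coding starts only, 62.5% where both kinds were present and 48.2% (46.7 to 49.6%) with no start. The odds of class Strong were 0.698 times those at coding starts (0.548 to 0.889, adjusted p = 0.0152, n = 19) and 1.33 times those with no start (1.07 to 1.65, adjusted p = 0.0274, n = 19). The share was lower than at coding starts on 15 of 19 autosomes and higher than with no start on 14. With GC content in the model the first ratio was 0.726 (adjusted p = 0.0843, n = 19) and the second 1.02 (0.794 to 1.32, adjusted p = 0.937, n = 19). With the distance to the nearest coding start in the model the second was 1.15 (adjusted p = 0.345, n = 19).

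The score gave the same order without a test. Its median was 0.565 at noncoding starts (quartiles 0.350 and 0.974, lowest 0.2, highest 2.96), 0.690 at coding starts, 0.674 with both kinds and 0.480 with no start. On single autosomes the median score at noncoding starts lay between 0.382, on chromosome 12, and 0.744, on chromosome 8, over 12 to 30 boundaries each.

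**Figure D4:**
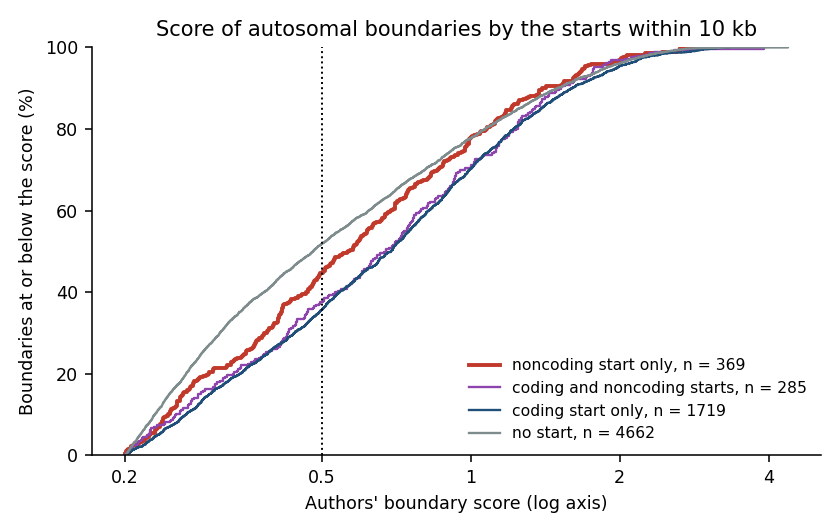
Cumulative share of autosomal boundaries (vertical axis, %) at or below each score (horizontal axis, authors' score without unit, log axis), for boundaries with a noncoding start only, both kinds, a coding start only or no start within 10 kb; the dotted line at 0.5 separates Weak from Strong. The red curve of the 369 boundaries runs between the grey curve (no start) and the blue and purple curves (coding starts) at the line, and meets the grey one near a score of 1.

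Sequence around these boundaries also differed from boundaries with no start, and so did that of such bins that were not boundaries. The median GC content of the interval was 44.7%, against 45.2% at coding starts and 41.6% with no start. The mean was 2.60 percentage points above boundaries with no start (2.02 to 3.18, adjusted p = 2.853e-07, n = 19) and differed by -0.554 points from those at coding starts (-1.26 to 0.157, adjusted p = 0.154, n = 19). A CTCF consensus match lay within 10 kb of 105 of the 369 (28.5%, exact 95% interval 23.9 to 33.4%), where 24% of all autosomal boundaries had one. Coding-only boundaries had one in 26.4% of cases and boundaries with no start in 22.1%. The odds of a match were 1.38 times those with no start (1.16 to 1.65, adjusted p = 0.00391, n = 19) and 1.13 times those at coding starts (0.912 to 1.39, adjusted p = 0.275, n = 19). With GC content in the model the first of these was 0.994 (0.837 to 1.18, adjusted p = 0.946, n = 19). Bins with a noncoding start only that were not boundaries held a match within 10 kb in 14.2% of cases, and those with no start in 9.50%. The median GC content of these bins was 43.6% with a noncoding start only and 40.7% with no start. Both differences from positions with no start were thus present away from boundaries as well.

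Within the 369, boundaries with a CTCF match within 10 kb were Strong in 64.8% of cases (68 of 105, exact 95% interval 54.8 to 73.8%) and those without one in 51.5% (136 of 264, 45.3 to 57.7%), which was not tested. The matches pointed away from the boundary more often than toward it. Within 50 kb to the right of the midpoint 103 of 159 (64.8%) were on the plus strand, and within 50 kb to the left 74 of 186 (39.8%) were. The difference of 25.0 percentage points stands beside 35.0 points at coding starts only and 25.0 points with no start, as a description without a test.

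The nearest other boundary was a median of 185 kb away, against 180 kb at coding starts and 210 kb with no start. On the log10 scale the spacing differed by -0.0567 from that with no start, a ratio of 0.878 (0.846 to 0.910, adjusted p = 2.771e-06, n = 19). Against coding starts the difference was 0.0248, a ratio of 1.06 (1.01 to 1.11, adjusted p = 0.0388, n = 19). The shorter spacing against no start kept its call in every alternative run. The longer spacing against coding starts did not: with GC content in the model the difference was 0.0191 (adjusted p = 0.0981, n = 19), and leaving out any of 11 of the 19 chromosomes also ended the call.

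The set divides into lincRNA and antisense boundaries. Of the 369 boundaries, 247 had lincRNA starts only, 118 antisense starts only and 4 both. Bins with an antisense start had 1.26 times the odds of being a boundary of bins with lincRNA starts only (1.04 to 1.53, adjusted p = 0.0388, n = 19). In the bin of the start itself 1.98% were boundaries for antisense genes (29 of 1467) and 1.32% for lincRNA genes (53 of 4020). With distance to the nearest coding start in the model the ratio was 1.08 (0.895 to 1.29, adjusted p = 0.418, n = 19). Class Strong was held by 62 of 122 boundaries with any antisense start (50.8%) and 142 of 247 with lincRNA starts only (57.5%), an odds ratio of 0.755 (0.491 to 1.16, adjusted p = 0.222, n = 19).

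The antisense starts nearest to these boundaries mostly lay in the body of a coding gene on the opposite strand. Positions given here are those of the antisense start, which can be up to 10 kb from the boundary. Of the 119 boundaries with an antisense gene nearest, 90 (75.6%) had that start in such a host. The start lay at a median of 71.8% of the length of the host, and 39 of these 90 (43.3%) were beyond 75% of it. Among 1483 antisense starts with no coding start within 10 kb anywhere, 1207 (81.4%) had such a host, at a median of 64.4% of its length, and 460 (38.1%) were beyond 75% of it. Starts near the head of a host are largely kept out of both sets, since a coding start within 10 kb of the boundary, or of the antisense start, is barred. Of all 369 boundaries, 72 overlapped an exon of a coding gene, 43 lay in an intron and 254 were outside coding genes. The 115 in a coding gene made up 31.2% of the set, beside 28.1% of all bins with a noncoding start only. Class Strong was held by 61.1% at exons (exact interval 48.9 to 72.4%), 44.2% in introns (29.1 to 60.1%) and 55.5% outside (49.2 to 61.7%). These intervals overlap, and neither the location nor the class difference was tested.

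The 12 highest-scored boundaries of the set were all Strong and scored between 1.99 and 2.96. They lay on 10 chromosomes, 11 of them outside coding genes, 4 with the noncoding start inside the interval, and 10 with no CTCF consensus match within 10 kb. Only 1 had an antisense gene nearest. Their nearest coding starts were between 12.04 and 261.1 kb away.

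The highest was the boundary at chr7:128790001-128795000, which scored 2.96 and was number 18 of all autosomal boundaries. The lincRNA gene Gm32884 starts 0.194 kb beyond it, and the nearest coding start, Sec23ip, whose product acts in export from the endoplasmic reticulum, was 45.1 kb away. The next, chr19:3195001-3200000, scored 2.65 and held the 1700030N03Rik start printed above, 82.9 kb from Mrpl21, a mitochondrial ribosomal protein gene. A boundary on chromosome 5 with the starts of Gm26519 and Gm32051 nearby also scored 2.65, 15.8 kb from Lrrc8b, which encodes a subunit of volume-regulated anion channels. None of these 3 had a CTCF match within 10 kb, which was so for 71.5% of the whole set.

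The fourth was the antisense case. The boundary at chr3:100115001-100120000 scored 2.62 and overlapped an exon of Spag17, a gene of the central apparatus of motile cilia. The start of the antisense gene Spag17os lay 8.11 kb from the boundary, at 85.9% of the length of Spag17. The nearest coding start, Gdap2, was 42.4 kb from the boundary. The boundary at chr1:73860001-73865000, with a score of 2.25, held the 6030407O03Rik start printed above and was 259.4 kb from the nearest coding start, Tns1, a focal adhesion gene. Of the other 7, those with Gm36745 (2.44), Gm10032 (2.26), Gm45538 (2.06), Gm47900 with Gm47897 (2.03) and Gm35667 (1.99) were each at least 50 kb from a coding start, whereas C430042M11Rik (2.07) was 12.04 kb from Haao, an enzyme gene of tryptophan breakdown, and D5Ertd615e with Gm42413 (2.02) was 25.2 kb from Qdpr, which regenerates tetrahydrobiopterin.

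Symbols of Gm and digits, those ending in Rik and clone accessions were taken as provisional. Noncoding genes with any other symbol were near 20 of the 369 boundaries. Not all of these symbols are gene names, as D5Ertd615e was kept under this definition. Of these 20, 11 were Strong (55.0%), beside 55.3% of the set, and only the highest-scored are named here. After Spag17os and D5Ertd615e, described above, the highest scores among them belonged to Mir155hg and Bach2os. The boundary at chr16:84700001-84705000 scored 1.63 and held the start of Mir155hg, the transcript from which the immune microRNA miR-155 is cut, 30.7 kb from Mrpl39. Bach2os, antisense to the B cell transcription factor gene Bach2, had a boundary with a score of 1.61 at chr4:32575001-32580000, overlapping an exon of Bach2. The Bach2os start itself lay at 95.9% of the length of Bach2. Lower ones were Epb41l4aos (1.21, start inside), Lrrc75aos2 (0.715), Sorbs2os (0.635), Tvp23bos (0.634, start inside), Ube4bos1 (0.586), Nckap5los (0.520) and Arhgap27os3 (0.506, start inside), all Strong.

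Zfp469 (0.432, Weak) is in the set because the annotation release types it as lincRNA, although its name is that of a zinc finger protein gene. The boundary at chr17:39845001-39850000, with the starts of Gm42418, AY036118 and Gm26917 within 10 kb, scored 0.744 at a GC content of 57.4%. That locus is known to carry ribosomal RNA sequence, which is present in many copies, and whether this bears on the call was not tested. The other boundary with 3 noncoding starts nearby, those of Gm49123, Gm15601 and Gm49124, scored 0.453.

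MicroRNA genes lay within 10 kb of 10 boundaries of the set, 11 genes in all, and 7 of these 10 boundaries were Strong. Mature sequences, from RefSeq (GRCm38.p6), are given for the genes near the highest-scored of them and for Mir202, whose gene lies inside its boundary. Mir6351 lay 4.43 kb from the 6030407O03Rik boundary, Mir155 lay 9.14 kb from the Mir155hg boundary, and Mir202 lay in the Gm2044 boundary at chr7:139955001-139960000, which scored 0.522. Capitals mark the seed, bases 2 to 8.
mmu-miR-6351: uAGCGUUGcucagggagcacaug
mmu-miR-155-5p: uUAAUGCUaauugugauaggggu
mmu-miR-155-3p: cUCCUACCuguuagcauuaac
mmu-miR-202-5p: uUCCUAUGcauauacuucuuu
mmu-miR-202-3p: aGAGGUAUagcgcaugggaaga

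No pair of these 5 shares a seed. Mir124a-3, a copy of the neuronal microRNA miR-124, lay 0.961 kb from a Weak boundary with a score of 0.296 beside the lincRNA gene Gm27032. MicroRNA starts were not part of the rule, and the class of these 10 boundaries was not tested against that of the set.

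At the other end of the scores, Gm45349, Gm48834 and Bcas1os2, in an intron of Bcas1, each had a boundary at 0.201, and that of AC126695.1 scored 0.2, the floor of the list. The 3 boundaries farthest from coding starts were also Weak. Gm29515 on chromosome 1 was 1701 kb from Pla2g4a and scored 0.254, Gm41219 on chromosome 14 was 1696 kb from Olfm4 and scored 0.224, and Gm47568 on chromosome 10 was 1437 kb from Hace1 and scored 0.235. Of the 12 boundaries more than 500 kb from a coding start, 1 was Strong. Within the set the Strong share was 57.8% (63 of 109) with a coding start 10 to 25 kb away, 61.5% at 25 to 50 kb, 64.4% at 50 to 100 kb and 39.6% (38 of 96, exact 95% interval 29.7 to 50.1%) beyond 100 kb. Among boundaries with no start the Strong share was 67.2% in the nearest band and 25.4% (445 of 1750, 23.4 to 27.5%) in the farthest. The exact intervals of both kinds of boundary overlap in every band except beyond 100 kb, and the difference within a band was not tested.

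The limit of 10 kb in the rule did not separate strong from weak positions. The 132 boundaries just inside it, with a noncoding start 5 to 10 kb away, were Strong in 56.1% of cases, and the 162 just outside, at 10 to 15 kb, in 63.6%. For the coding limit, the 42 just inside the rule, with a coding start at 10 to 15 kb, were Strong in 61.9%, and the 71 kept out by a coding start at 5 to 10 kb in 71.8%. By side, 153 boundaries lay upstream of their nearest noncoding start (54.9% Strong), 135 downstream (53.3%) and 81 over it (59.3%).

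Well-studied long noncoding genes were looked up by name. Of 74 names in a list of such genes, 72 were found in the annotation and 51 were of the types in the rule. A boundary lay within 10 kb of 6 of these (11.8%), where 703 of all 8069 lincRNA and antisense starts (8.71%) had one, a difference that was not tested. Of the 6, 5 (Hotairm1, Tug1, Lhx1os, Emx2os and Platr20) stood beside a coding start. The exception was Platr3, 3.91 kb from a Weak boundary of the set with a score of 0.407, itself 14.01 kb from the start of Plcb4, a phospholipase C gene. For Miat, a nuclear transcript of neurons, and Kcnq1ot1, the imprinted antisense transcript of Kcnq1, the nearest boundary did belong to the set, at 24.4 kb (score 0.990, Strong) and 141.5 kb (score 0.906, Strong), through another noncoding gene each time. The same was true of Otx2os1, at 128.7 kb (score 0.230, Weak), and Pax6os1, at 180.3 kb (score 0.853, Strong).

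Odorant receptor genes, one of which these neurons were sorted for, were looked for next. The nearest coding start was that of an Olfr gene for 1 of the 369 boundaries (0.271%) and for 48 of the 26114 bins with a noncoding start only (0.184%), so the boundaries were near their background. That boundary, beside 4933423P22Rik on chromosome 2, was Weak with a score of 0.415.

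**Figure D5:**
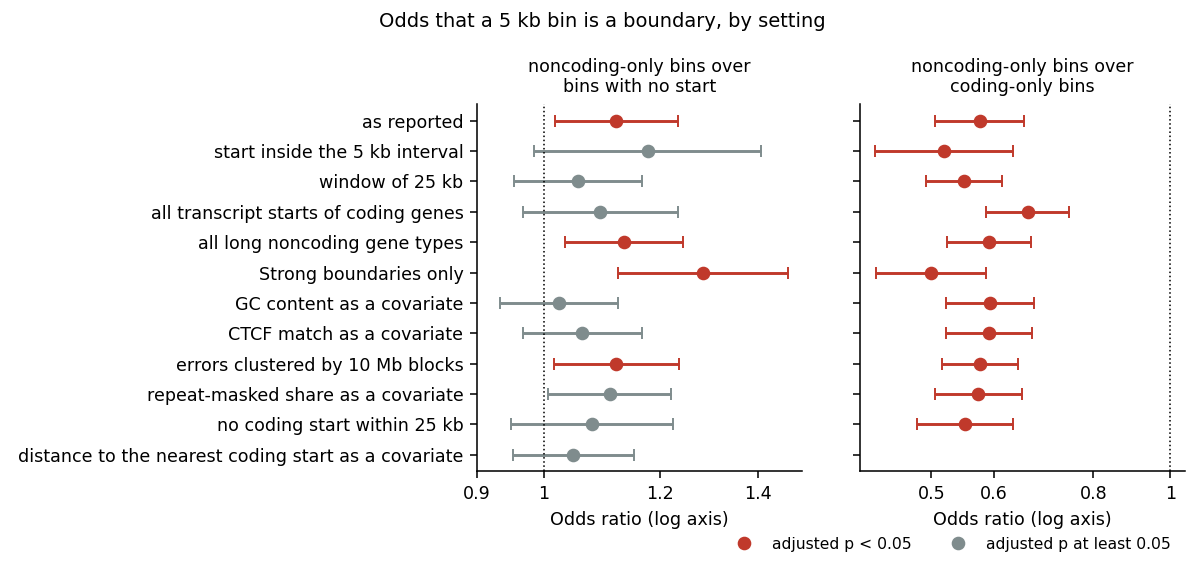
Odds ratio of being a boundary (horizontal axes, log) with 95% intervals, for bins with a noncoding start only over bins with no start (left) and over bins with a coding start only (right), as reported and under up to 11 other settings (vertical axis); red points have an adjusted p under 0.05. All points on the right lie below 1, between 0.4996 and 0.661, and 8 of the 11 other settings on the left are grey.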

How the data were processed

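In situ Hi-C was done on sorted mouse olfactory sensory neurons in 2 biological replicates. Per the series design text, the authors combined the contact lists of both replicates into 1 contact matrix on GRCm38 and called the boundaries on it. The deposited list gives each boundary as a 5 kb interval with a class and a score, the authors' own number on a scale that the sources used here do not explain. The aligner, its filters and the boundary caller were not given in the sources used here. The list carries no counts, so the depth behind each boundary is unknown, and nothing per replicate can be averaged or tested. The score was used only to describe and rank boundaries within this list. Matrices and tracks of the same experiment were not used here.

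Gene starts came from GENCODE release M21 (5209 lincRNA, 2913 antisense and 20807 protein-coding autosomal genes), 1 start per gene, and sequence was read from GRCm38. Distances were counted in 5 kb bins, and bins with unread bases were left out, as were 5 boundaries outside the bins fitted. Boundary odds came from a logistic model across all 476044 autosomal bins. Class Strong and CTCF matches came from logistic models across autosomal boundaries, and GC content and log10 spacing from linear ones. All models had a term for each chromosome and errors clustered over the 19 chromosomes (t with 18 degrees of freedom), and were fitted with numpy 2.4.6 and scipy 1.17.1 in Python 3.11.15. They were tested on simulated data. P-values are two-sided and adjusted by Benjamini-Hochberg over 13 results, or over 11 with GC content or a CTCF match as a covariate, and called at 0.05. In the model with terms for starts within 50 kb they are adjusted over its 9 terms. They measure how positions vary between chromosomes, not variation between animals. Intervals called exact are 95% Clopper-Pearson intervals, for counting error alone.

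Boundaries were named when they were among the 12 highest or 4 lowest scores, the 3 with the most noncoding starts, the 3 farthest from a coding start, or the 12 highest near a gene without a provisional symbol. Others were named after their values were seen. The rule for the set, the gene lists and the tests were chosen with earlier results of these data known. Alternatives were the window, the start definition, the gene types, the class limit, covariates for GC content, CTCF, repeats and coding distance, 10 Mb blocks for the errors, and leaving out each chromosome.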

Additional observations from a re-analysis of the deposited data

How the results depend on the processing

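The odds of a boundary at noncoding-only against coding-only bins stayed below 1 with an adjusted p under 0.05 in every alternative run (0.4996 to 0.661), and the higher GC content and shorter spacing against boundaries with no start also kept their calls in each. Of 129 alternatives, not counting those that left out a chromosome, 90 kept the direction and the side of the threshold, 28 lost a call, 6 gained one and 5 turned direction. The calls lost on leaving out a chromosome are given at the end. The covariates for repeats and coding distance and the stricter coding limit of 25 kb were added after seeing the data. Where a value below moved, the cause was not tested.

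The excess of boundaries at noncoding-only bins over bins with no start lost its call with the start inside the interval (odds ratio 1.18), a window of 25 kb (1.05), all transcript starts (1.09), GC content (1.02), CTCF matches (1.06), repeat-masked share (1.11), no coding start within 25 kb (1.08) and coding distance (1.05). Antisense against lincRNA bins lost it with the start inside (1.56), all transcript starts (1.29), Strong boundaries only (1.10), GC content (1.20), CTCF matches (1.20), no coding start within 25 kb (1.27) and coding distance (1.08).

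For class Strong against boundaries with no start the call was lost with the start inside (1.50), a score above the upper quartile (1.06), GC content (1.02), CTCF matches (1.28) and coding distance (1.15). Against coding starts it was lost with the start inside (0.909) and GC content (0.726). Antisense against lincRNA boundaries gained a call with coding distance (0.548).

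The CTCF ratio against no start lost its call with the start inside (1.41) or the match inside (1.09) and turned to 0.994 with GC content. Against coding starts it turned to 0.991 with all transcript starts, 0.945 with the match inside and 0.972 with no coding start within 25 kb, with no call in any of these.

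Bins with both kinds of start against coding-only bins gained a call with a window of 25 kb (1.15), all transcript starts (1.17) and all long noncoding types (1.14), and turned to 0.983 with GC content. The GC difference from coding starts gained one with a window of 25 kb (-0.853 points) and all transcript starts (-0.823 points). The log10 spacing difference from coding starts lost its call with the start inside (0.0187), all transcript starts (0.0266), all long noncoding types (0.0211) and GC content (0.0191).

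Leaving out each of 19 chromosomes moved the noncoding excess over no start between 1.10 and 1.15 and ended its call for 12 of them, antisense against lincRNA bins between 1.22 and 1.32 (9), class Strong against no start between 1.26 and 1.40 (3) and the spacing against coding starts between 0.0198 and 0.0296 (11). It changed no call of the other results, which ranged from 0.562 to 0.593 for noncoding-only against coding-only bins, 1.03 to 1.08 for both kinds, 0.654 to 0.727 for Strong against coding starts, 0.688 to 0.827 for Strong in antisense against lincRNA, 1.33 to 1.44 and 1.08 to 1.18 for CTCF matches, 2.48 to 2.73 and -0.669 to -0.359 points for GC content, and -0.0607 to -0.0539 for spacing against no start. No paired analysis was possible because the list pools both replicates of 1 group.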
